A study of Mus musculus with 12 samples.

Results

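The 10 genes described here mark macrophages in tumors: the pan-macrophage markers Csf1r, Adgre1 and Cd68, the complement genes C1qa, C1qb and C1qc, the scavenger receptors Mrc1 and Cd163 of alternative activation, and the lipid-handling genes Apoe and Trem2. They were taken by symbol from the 21960 genes listed for each tumor, and all 10 were listed in all 12 tumors. The tumors came from female C57BL/6 mice that carry the polyoma middle T oncogene (PyMT) under the MMTV promoter, which drives it in mammary epithelium, so that the macrophages themselves belong to the host. Bulk total RNA of snap-frozen whole tumors was made into stranded single-end libraries with a SMARTer kit, and each group held 3 tumors. The study asked how doxorubicin (DOX) chemotherapy and blockade of the T cell checkpoint receptor PD-1 act in combination.

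The IgG1 group received the control antibody and the anti-PD-1 group the blocking antibody 4H2, starting when the first tumor measured 0.6 cm, with 20 mg/kg first and 10 mg/kg in later doses up to day 18. The DOX/IgG1 and DOX/anti-PD-1 groups started at 1 cm and received 5 mg/kg doxorubicin weekly for 5 weeks, with 10 mg/kg of the same antibodies the day after each dose. The sample labels give weekly treatment over 5 weeks for all 4 groups. A comparison of tumors with and without doxorubicin therefore also compares tumors that started at another size, with another first antibody dose and another schedule, and these cannot be told apart. The labels do not state that replicates came from separate mice, so each p below measures the spread between these tumors, and no age is given. The authors give the unit as TPM, which keeps no counts, so the depth is unknown, and the values alone would also allow FPKM.

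Macrophages clear dead cells, present antigen and secrete growth factors and cytokines. In mammary tumors they are often the most numerous immune cells, and signaling through the CSF1 receptor keeps them alive. Alternative activation is the textbook name for a state with scavenger and mannose receptors, tissue repair and damped inflammation, set against the classical state with inflammatory cytokines. In bulk RNA, fewer macrophages and less RNA of a marker per macrophage cannot be told apart.

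The tumor label was matched by its markers. All 8 epithelial genes listed were above 0 in every tumor, with a mean of 729 TPM for Epcam, an adhesion protein of epithelial cells, and 662 TPM for Krt19, a keratin. All 10 macrophage markers were also above 0 in every tumor. DOX/IgG1 replicate 1 stood apart from the other tumors. It had 8104 genes listed at 0, where the other 11 had 6534 to 7730, and the header of its value column contained the word test. The marker values of DOX/IgG1 against IgG1 are therefore also given without it. Tissue around the tumor also differed between samples: the 6 skeletal muscle genes summed to 0.51 TPM in DOX/anti-PD-1 replicate 2 and 875 TPM in DOX/anti-PD-1 replicate 1, and the 8 adipocyte genes ranged from 106 TPM in IgG1 replicate 1 to 896 TPM in DOX/IgG1 replicate 2.

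The markers spanned a wide range of levels. Apoe had a mean of 799 TPM over the 12 tumors and ranked 55 among all listed genes. C1qa followed at 117 TPM, C1qb at 68.9, C1qc at 42.4, Mrc1 at 39.8, Csf1r at 34.7, Adgre1 at 24.1, Cd68 at 11.3, Trem2 at 9.07 and Cd163 at 8.57 TPM. C1qb and Csf1r were the steadiest, with a coefficient of variation over the 12 tumors of 15.7% and 16.3%, and Trem2 had the largest ratio of the highest to the lowest tumor, at 29.1 TPM in DOX/anti-PD-1 replicate 3 and 0.76 TPM in DOX/anti-PD-1 replicate 1. The group mean was highest in DOX/IgG1 for 7 of the 10 markers and lowest in anti-PD-1 for 6 of the 10. For each marker, groups next to each other in the order of their means had overlapping tumors.

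**Figure D1:**
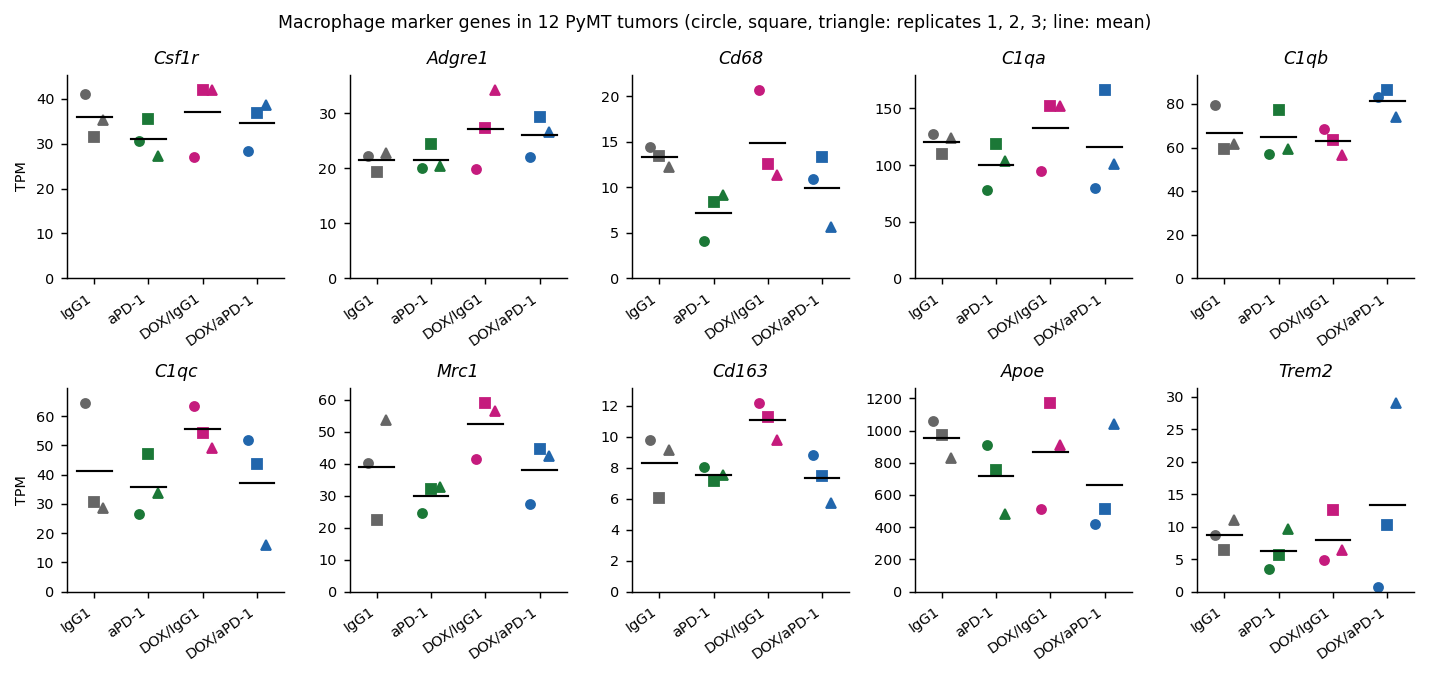
Level of each of the 10 marker genes in TPM (linear axes from 0) in the 3 tumors of each group, with a line at the group mean. For all 10 genes, groups next to each other in the order of their means, which is not the order drawn, had overlapping tumors. Trem2 ran from 0.76 to 29.1 TPM within the DOX/anti-PD-1 group.

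Csf1r encodes the receptor for CSF1 and IL-34, on which most macrophages depend for survival (ENSMUSG00000024621, protein coding, chr18:61100598-61132149, plus strand, GRCm38). Its level was 41.1, 31.5 and 35.2 TPM in IgG1 replicates 1, 2 and 3, 30.6, 35.5 and 27.3 TPM in anti-PD-1, 26.9, 42.0 and 42.1 TPM in DOX/IgG1, and 28.4, 37.0 and 38.6 TPM in DOX/anti-PD-1. The lowest and the highest tumor both belonged to DOX/IgG1, and all 4 groups overlapped. Group means were 35.9 ± 4.85, 31.1 ± 4.10, 37.0 ± 8.71 and 34.6 ± 5.50 TPM (SD, n = 3) in the same order. The differences of group means in log2(TPM + 1) lay close to 0: 0.02 for DOX/IgG1 against IgG1, with a 95% confidence interval from limma of -0.61 to 0.65, and -0.20 for anti-PD-1 against IgG1, with an interval of -0.75 to 0.34. The size of the latter rests largely on IgG1 replicate 1 at 41.1 TPM and anti-PD-1 replicate 3 at 27.3 TPM.

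Adgre1 encodes F4/80, the surface receptor most used to stain mouse macrophages (ENSMUSG00000004730, chr17:57358691-57483527, plus strand). It measured 22.2, 19.4 and 22.8 TPM in the IgG1 tumors, 20.1, 24.4 and 20.4 TPM in anti-PD-1, 20.0, 27.4 and 34.3 TPM in DOX/IgG1, and 22.1, 29.3 and 26.7 TPM in DOX/anti-PD-1. In each DOX group replicates 2 and 3 were above all 6 tumors without doxorubicin, and replicate 1 lay among them. Over both antibodies the difference with doxorubicin was 0.28 in log2 (limma 95% interval -0.12 to 0.67, adjusted p = 0.581). An exact permutation test over the 400 splits made within each antibody gave a two-sided p = 0.07, where 0.005 is the smallest p it allows. The antibody made little difference in level, with 21.5 ± 1.81 TPM in IgG1 and 21.6 ± 2.40 TPM in anti-PD-1 (SD, n = 3), and a limma interval of -0.56 to 0.57 around a log2 difference of 0.00.

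Cd68 encodes macrosialin, a glycoprotein of late endosomes and lysosomes found in nearly all macrophages (ENSMUSG00000018774, chr11:69664213-69666153, minus strand). Its level was 14.4, 13.5 and 12.2 TPM in IgG1 and 4.07, 8.35 and 9.14 TPM in anti-PD-1. All 3 anti-PD-1 tumors were thus below all 3 IgG1 tumors. It was the only marker of the 10 that lay wholly lower in this comparison, where 6.24% of all genes tested did, and 0 of the 10 lay wholly higher, where 3.64% did. The log2 difference was -0.87 with a limma 95% interval of -1.66 to -0.08. The unadjusted limma p was 0.0339 and the adjusted p over all 13692 genes tested was 0.996, so Cd68 did not pass. The exact permutation test gave p = 0.1, the smallest that 3 against 3 tumors can give. When each of the 6 tumors was left out in turn, the log2 difference of Cd68 ranged from -1.06 to -0.56, and it was smallest without anti-PD-1 replicate 1. The unadjusted limma p of Cd68 was below 0.05 in 2 of these 6 fits and ran up to 0.113. With doxorubicin, Cd68 measured 20.7, 12.5 and 11.4 TPM in DOX/IgG1 and 10.9, 13.3 and 5.63 TPM in DOX/anti-PD-1. The 2 groups overlapped there, with a log2 difference of -0.56 (limma 95% interval -1.53 to 0.40), which is -0.31 without DOX/IgG1 replicate 1 and -0.24 without DOX/anti-PD-1 replicate 3. The limma interaction, which compares the difference made by doxorubicin under the 2 antibodies, was 0.31 for Cd68 with an interval that spans 0 widely, down to -0.89, and ran from -0.01 without anti-PD-1 replicate 1 to 0.63 without DOX/anti-PD-1 replicate 3.

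PU.1 is a transcription factor that macrophages need to form, and RefSeq promoters of the markers were searched for its letters and for 2 other short motifs. Of the 10 markers, 7 had an entry of 300 bases (250 before to 50 after the start, GRCm38.p6), with 3 entries for Apoe, and Adgre1, Csf1r and C1qa had none. The letters GAGGAA, the core of the PU.1 motif, were sought on both strands, on the opposite strand as TTCCTC. They stood in 7 of these 9 promoters and in 28.3% of all 32851 promoters of the table. The E-box CACGTG stood in 0 of the 9 (7.15% of all) and the TATA box letters TATAAA in 1, an Apoe entry (13.6% of all). A match is a run of letters and no measured binding site. The stretches before the start are shown for Cd68, C1qb and Cd163, whose own levels parted the tumors of a comparison, and for C1qc, the neighbor of C1qb, each 5′ to 3′ on the strand of its gene with the PU.1 core in capitals on either strand. The Cd68 stretch (chr11:69666171-69666420, minus strand) had 1 match, and Cd68 had a second match after its start that is not shown.
Cd68: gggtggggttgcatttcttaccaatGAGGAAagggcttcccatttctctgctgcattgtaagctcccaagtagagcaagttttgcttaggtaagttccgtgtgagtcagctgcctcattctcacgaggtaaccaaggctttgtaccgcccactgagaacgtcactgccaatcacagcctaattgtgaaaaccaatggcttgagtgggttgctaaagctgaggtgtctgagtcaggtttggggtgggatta

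C1qa, C1qb and C1qc encode the 3 chains of C1q, which starts the classical complement pathway and coats dying cells for uptake, and which macrophages make in most tissues. The genes lie side by side on the minus strand of chromosome 4 in the order C1qb (ENSMUSG00000036905, chr4:136880129-136886187), C1qc (ENSMUSG00000036896, chr4:136889804-136893065) and C1qa (ENSMUSG00000036887, chr4:136895917-136898803), within 18675 bases. The PU.1 core stood 30 bases before the start in C1qb, on the strand of the gene, and 193 bases before it in C1qc, on the opposite strand. The C1qc stretch is cut at 99 bases, before an annotated exon, and the 2 stretches are chr4:136886201-136886450 and chr4:136893066-136893164, both on the minus strand.
C1qb: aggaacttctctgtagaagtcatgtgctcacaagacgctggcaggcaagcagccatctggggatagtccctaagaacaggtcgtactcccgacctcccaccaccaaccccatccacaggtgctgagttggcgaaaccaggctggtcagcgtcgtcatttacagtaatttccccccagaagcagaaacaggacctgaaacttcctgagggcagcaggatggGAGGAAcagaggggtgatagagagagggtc
C1qc: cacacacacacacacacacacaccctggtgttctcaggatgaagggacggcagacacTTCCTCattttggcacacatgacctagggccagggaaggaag

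C1qa measured 127, 109.6 and 124 TPM in IgG1, 77.9, 119 and 103 TPM in anti-PD-1, 94.5, 152 and 152 TPM in DOX/IgG1, and 79.8, 167 and 101 TPM in DOX/anti-PD-1. C1qb measured 79.4, 59.4 and 61.5 TPM in IgG1, 57.2, 77.3 and 59.4 TPM in anti-PD-1, 68.6, 63.4 and 56.5 TPM in DOX/IgG1, and 83.2, 86.6 and 73.8 TPM in DOX/anti-PD-1. C1qc measured 64.5, 30.6 and 28.5 TPM in IgG1, 26.4, 47.2 and 33.6 TPM in anti-PD-1, 63.6, 54.1 and 49.1 TPM in DOX/IgG1, and 52.0, 43.7 and 15.9 TPM in DOX/anti-PD-1. C1qa was highest in DOX/anti-PD-1 replicate 2, C1qb in the same tumor, and C1qc in IgG1 replicate 1.

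For C1qb each of the 3 DOX/anti-PD-1 tumors lay above the 3 DOX/IgG1 tumors, 81.2 ± 6.59 against 62.9 ± 6.07 TPM (SD, n = 3). It was the only marker of the 10 that lay wholly higher in this comparison, where 4.27% of all genes tested did. The log2 difference of 0.37 had a limma 95% interval of -0.12 to 0.85 and an adjusted p of 0.988, and the exact permutation p of 0.1 is the smallest possible. C1qc went the other way in the same comparison, 37.2 ± 18.9 against 55.6 ± 7.36 TPM, with overlapping tumors and a log2 difference of -0.72 (limma 95% interval -1.68 to 0.24), which is -0.21 without DOX/anti-PD-1 replicate 3. C1qa differed by -0.23 (-0.97 to 0.51), -0.53 without DOX/anti-PD-1 replicate 2, -0.46 without DOX/IgG1 replicate 1, -0.12 without DOX/IgG1 replicate 2 or 3 and 0.00 without DOX/anti-PD-1 replicate 1.

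Set against C1qb in the same tumor, C1qc gave the widest separation among the 3 chains. The log2 difference of C1qc minus C1qb was -0.30, -0.93 and -1.08 in IgG1, -1.09, -0.70 and -0.80 in anti-PD-1, -0.11, -0.23 and -0.20 in DOX/IgG1, and -0.67, -0.97 and -2.15 in DOX/anti-PD-1. C1qc and C1qb were nearly level in all 3 DOX/IgG1 tumors, which lay above the other 9. The mean of DOX/IgG1 was higher by 0.59 than that of IgG1, and the mean of DOX/anti-PD-1 was lower than that of DOX/IgG1, with a difference of -1.09 whose size rests largely on DOX/anti-PD-1 replicate 3 at -2.15. Each gave an exact permutation p of 0.1, the smallest possible for 3 against 3 tumors, among 9 ratios compared in 5 comparisons. Both comparisons share the DOX/IgG1 tumors. C1qa minus C1qb overlapped in all comparisons.

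Mrc1 encodes the mannose receptor CD206, which takes up glycoproteins and microbes and is the most used surface marker of alternatively activated macrophages (ENSMUSG00000026712, chr2:14229392-14332057, plus strand). It measured 40.4, 22.4 and 53.8 TPM in IgG1, 24.6, 32.2 and 32.9 TPM in anti-PD-1, 41.6, 59.0 and 56.6 TPM in DOX/IgG1, and 27.4, 44.5 and 42.5 TPM in DOX/anti-PD-1. The 2 highest tumors were DOX/IgG1 replicates 2 and 3, and the IgG1 tumors alone spanned 22.4 to 53.8 TPM. Mrc1 had the largest difference of the 10 markers with doxorubicin over both antibodies, 0.41 in log2 (limma 95% interval -0.08 to 0.89, adjusted p = 0.501), and it was above 0 under both antibodies at 0.49 and 0.32. Single tumors weigh on these values of Mrc1: the first is 0.15 without IgG1 replicate 2 and 0.76 without IgG1 replicate 3, the second 0.19 without anti-PD-1 replicate 1, 0.20 without DOX/anti-PD-1 replicate 2 and 0.54 without DOX/anti-PD-1 replicate 1, and that over both antibodies 0.24 without IgG1 replicate 2. Without IgG1 replicate 2 Mrc1 lay below Cd68 over both antibodies, so it was then not the largest. The exact permutation test over 400 splits gave p = 0.1.

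Cd163 encodes the scavenger receptor for complexes of hemoglobin and haptoglobin, largely restricted to macrophages (ENSMUSG00000008845, chr6:124304656-124330527, plus strand). The stretch before its start (chr6:124304401-124304650, plus strand) is shown as the promoter among the 4 without the PU.1 core, which says only that these letters are not in this window.
Cd163: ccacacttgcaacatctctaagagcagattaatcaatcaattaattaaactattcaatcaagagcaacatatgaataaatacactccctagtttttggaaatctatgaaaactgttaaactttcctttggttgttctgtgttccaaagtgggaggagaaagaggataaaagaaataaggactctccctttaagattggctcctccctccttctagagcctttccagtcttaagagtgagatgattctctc

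Cd163 had the lowest mean of the 10 markers over the 12 tumors, although the median of Trem2, 7.56 TPM, was below its median of 8.43 TPM. It measured 9.76, 6.04 and 9.16 TPM in IgG1, 8.06, 7.11 and 7.51 TPM in anti-PD-1, 12.2, 11.3 and 9.76 TPM in DOX/IgG1, and 8.79, 7.44 and 5.74 TPM in DOX/anti-PD-1. All 3 DOX/IgG1 tumors were above all 3 DOX/anti-PD-1 tumors, and 1 of them equaled the highest IgG1 tumor. Between these groups it was the only marker of the 10 that lay wholly lower, where 5.95% of all genes tested did. The log2 difference was -0.55 with a limma 95% interval of -1.36 to 0.27 and an adjusted p of 0.988. The exact permutation p was 0.1, the smallest possible. Under the control antibody doxorubicin gave Cd163 a difference of 0.39 (limma interval -0.40 to 1.18) and under anti-PD-1 -0.06 (-0.80 to 0.69), and the limma interaction of -0.45 had an interval of -1.42 to 0.52. Without IgG1 replicate 2 the difference of Cd163 under the control antibody is 0.20 and the interaction -0.26, and under anti-PD-1 the difference is 0.09 without DOX/anti-PD-1 replicate 3.

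Apoe encodes apolipoprotein E, which carries cholesterol out of cells and which hepatocytes, adipocytes and other cells make besides macrophages (ENSMUSG00000002985, chr7:19696109-19699188, minus strand). It measured 1060.0, 973 and 828 TPM in IgG1, 912, 757 and 481 TPM in anti-PD-1, 513, 1171 and 908 TPM in DOX/IgG1, and 421, 515 and 1042 TPM in DOX/anti-PD-1. The groups overlapped widely, with low tumors in each of the 3 treated groups. Apoe made up between 54.0% and 78.3% of the summed TPM of the 10 markers in a tumor, so that a sum over all 10 mainly follows Apoe. It was the marker with the lowest difference with doxorubicin over both antibodies, -0.20 in log2 (limma 95% interval -0.78 to 0.38). Leaving out 1 tumor moves this value of Apoe between -0.39 without DOX/anti-PD-1 replicate 3 and -0.03 without DOX/IgG1 replicate 1. Without DOX/anti-PD-1 replicate 3 Trem2 was about as low, so Apoe was then not clearly the lowest.

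Trem2 encodes a lipid-sensing receptor of macrophages and microglia (ENSMUSG00000023992, chr17:48346401-48354147, plus strand). It measured 8.66, 6.44 and 11.1 TPM in IgG1, 3.46, 5.61 and 9.58 TPM in anti-PD-1, 4.81, 12.6 and 6.45 TPM in DOX/IgG1, and 0.76, 10.3 and 29.1 TPM in DOX/anti-PD-1. Its lowest and its highest tumor were both DOX/anti-PD-1. The mean of that group, 13.4 ± 14.4 TPM (SD, n = 3), rests on replicate 3. Between the groups with doxorubicin, the log2 difference of Trem2 with anti-PD-1 was 0.01 with a limma interval of -2.11 to 2.12. It was 1.13 without DOX/anti-PD-1 replicate 1, -0.91 without DOX/anti-PD-1 replicate 3, and -0.22 with a pseudocount of 0.1 TPM, and so has no settled sign.

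Together, the 9 markers other than Apoe summed to 408, 299 and 358 TPM in IgG1, 252, 356 and 303 TPM in anti-PD-1, 353, 435 and 418 TPM in DOX/IgG1, and 313, 439 and 339 TPM in DOX/anti-PD-1. The group means were 355 ± 54.4, 304 ± 52.0, 402 ± 43.2 and 364 ± 66.2 TPM (SD, n = 3). The groups overlapped. The lowest tumor was anti-PD-1 replicate 1 and the highest DOX/anti-PD-1 replicate 2.

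In tests across all genes with limma, a gene was called at an adjusted p below 0.1 and a change of more than 1 in log2. By this rule 0 of the 10 markers were called in DOX/IgG1 against IgG1 (0.036% of all 13874 genes tested were), in DOX/anti-PD-1 against anti-PD-1 (0%), in anti-PD-1 against IgG1 (0%) or when comparing DOX/anti-PD-1 with DOX/IgG1 (0%). None of the 10 was called by limma for doxorubicin over both antibodies (0.0882% of 14735 genes tested) or for the interaction of drug and antibody (0.00679%). At an unadjusted limma p below 0.05 stood 1 marker, Cd68, in anti-PD-1 against IgG1, and 0 in the other 5 tests. The share of all genes at that level was 7.73%, 8.63%, 4.60%, 4.70%, 11.9% and 4.71% in the same order of the 6 tests. These calls rest on few tumors: without DOX/IgG1 replicate 1, limma called 122 genes in DOX/IgG1 against IgG1 in place of 5, which is 0.879% of the genes tested, and 301 in place of 13 for doxorubicin over both antibodies. Without IgG1 replicate 1, 2 or 3 or DOX/IgG1 replicate 3 it called 0 genes in DOX/IgG1 against IgG1, and without DOX/IgG1 replicate 2 it called 2. For doxorubicin over both antibodies it called 0 genes without IgG1 replicate 2 or anti-PD-1 replicate 1, 2 without DOX/IgG1 replicate 3, 3 without anti-PD-1 replicate 2, 5, 20 and 7 without DOX/anti-PD-1 replicates 1, 2 and 3. For the interaction it called 1 gene, and when 1 tumor was left out 1 gene without DOX/IgG1 replicate 1 or DOX/anti-PD-1 replicate 3 and 0 without any of the other 10. Where 0 genes were called, leaving out a tumor brought 1 to 4: in DOX/anti-PD-1 against anti-PD-1 1 without anti-PD-1 replicate 1 or DOX/anti-PD-1 replicate 1 or 3 and 4 without DOX/anti-PD-1 replicate 2, in anti-PD-1 against IgG1 4 and 2 without IgG1 replicates 1 and 2 and 1 without anti-PD-1 replicate 2, and between the groups with doxorubicin 4 without DOX/IgG1 replicate 1 and 1 without DOX/anti-PD-1 replicate 3. No marker of the 10 was among the calls in any of these fits. The limma interval lay within 1 log2 unit of 0 on both sides for 9 of the 10 markers for doxorubicin over both antibodies, for 6 of 10 in DOX/IgG1 against IgG1, in DOX/anti-PD-1 against anti-PD-1 and in anti-PD-1 against IgG1, for 4 of 10 with anti-PD-1 among the tumors given doxorubicin, and for 3 of 10 for the interaction.

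**Figure D2:**
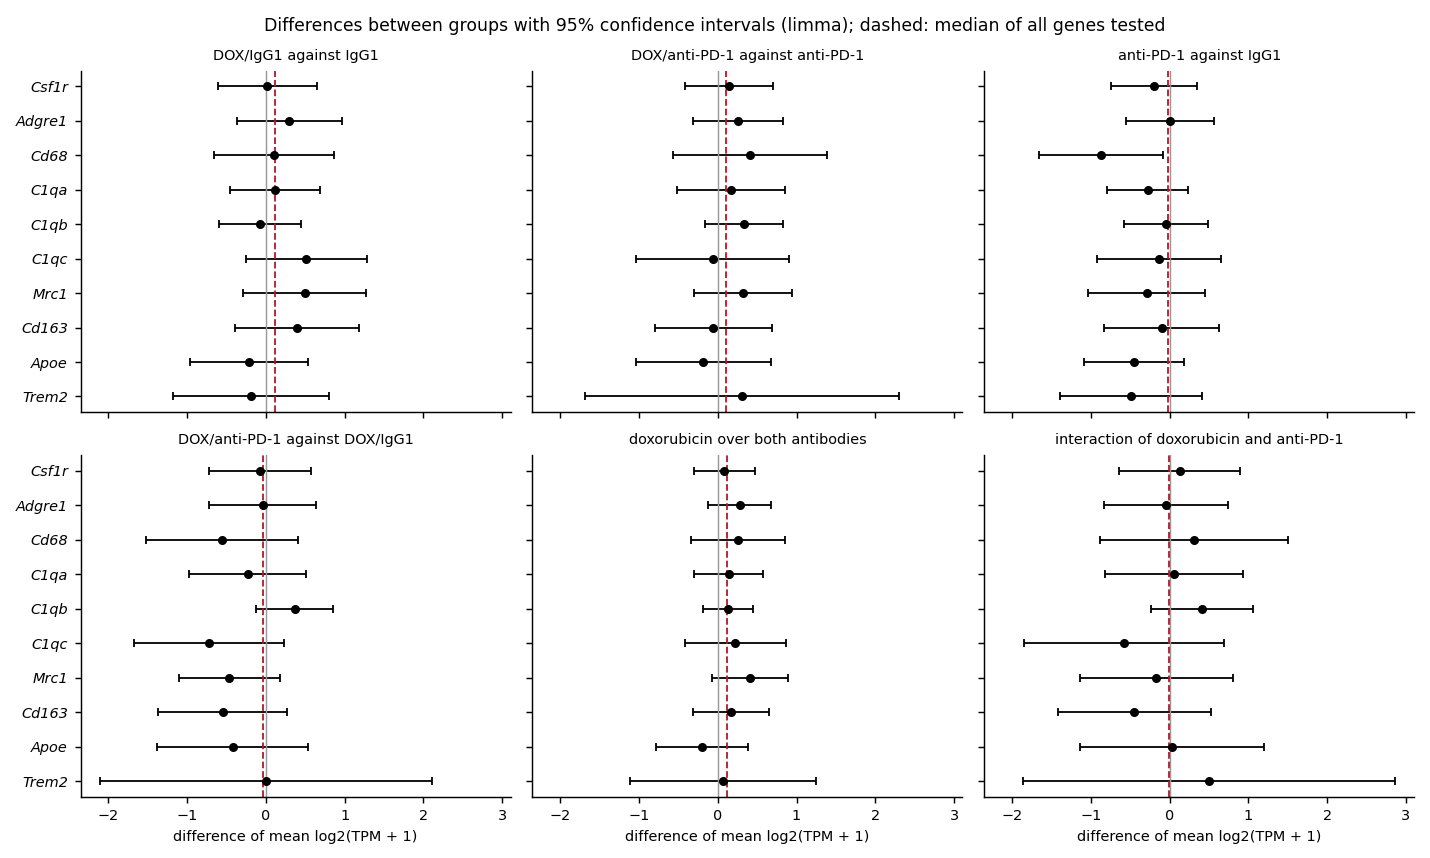
Difference of mean log2(TPM + 1) between groups (x axis) for each marker gene, with limma 95% confidence intervals as bars and the median of all genes tested as a dashed line. Only the interval of Cd68 in anti-PD-1 against IgG1, -1.66 to -0.08, leaves out 0, and with 1 of the 6 tumors left out its unadjusted limma p was below 0.05 in 2 of 6 fits.

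With doxorubicin under the control antibody, C1qc (0.51 in log2), Mrc1 (0.49) and Cd163 (0.39) had the largest differences among the markers and Apoe the lowest (-0.22). Without DOX/IgG1 replicate 1 the order is another: Mrc1 0.65, Adgre1 0.50, C1qc 0.42, C1qa 0.34, Cd163 0.33, Csf1r 0.23, Apoe 0.12, Trem2 0.08, C1qb -0.14 and Cd68 -0.15. Without IgG1 replicate 2, Mrc1 is at 0.15 and Cd163 at 0.20, without IgG1 replicate 3 C1qc is at 0.31 and Mrc1 at 0.76, and without IgG1 replicate 1 C1qc is at 0.88. In DOX/IgG1 against IgG1, 10217 of all 21960 genes listed were above 0 and 6758 below. The median over the 10 markers was 0.11, beside 0.12 over all genes tested, and 7 of 10 were above 0, of which Csf1r, Cd68 and C1qa fall below 0 when the tumors are scaled by the median of ratios. That scaling moves the median of all genes from 0.12 to 0.01 in this comparison, from 0.11 to -0.01 in DOX/anti-PD-1 against anti-PD-1 and from 0.12 to 0.01 for doxorubicin over both antibodies. The median of the 10 markers is then -0.01, 0.09 and 0.04 in these 3 comparisons. Without the scaling, the median of the markers in DOX/IgG1 against IgG1 was -0.01 relative to the median of all genes. The tumors of the 2 groups overlapped for all 10, where 9.31% of all genes tested lay wholly higher in DOX/IgG1 and 4.64% wholly lower. Without DOX/IgG1 replicate 1, the remaining 2 tumors lay above all 3 IgG1 tumors for 4 of the 10 markers, Csf1r, Adgre1, Mrc1 and C1qa, where 22.2% of all genes did, and below them for 0 of the 10, where 10.4% did. The median of the 10 was then 0.28, beside 0.15 for all genes, and the smallest adjusted limma p of a marker was 0.501. Without DOX/IgG1 replicate 3 in its place, the median of the 10 was 0.06.

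With doxorubicin under anti-PD-1, the median over the 10 markers was 0.21 in log2, beside 0.11 over all genes tested. It was 0.06 without anti-PD-1 replicate 1, 0.10 without DOX/anti-PD-1 replicate 2 and 0.32 without DOX/anti-PD-1 replicate 1. The highest was Cd68 at 0.41 (limma 95% interval -0.56 to 1.38), followed by C1qb at 0.33 (-0.16 to 0.83), and the lowest again Apoe at -0.18. Cd68 was at 0.10 without anti-PD-1 replicate 1 and 0.18 without DOX/anti-PD-1 replicate 2, below C1qb in both, and at 0.73 without DOX/anti-PD-1 replicate 3. Apoe ran from -0.57 without DOX/anti-PD-1 replicate 3 to 0.08 without DOX/anti-PD-1 replicate 1, and was the lowest marker in neither fit. Of the 10, 7 were above 0, with and without the scaling, which lowers their median to 0.09. Without the scaling, 9928 of all 21960 genes listed were above 0 and 7139 below. Tumors overlapped for all 10 markers, where 11.1% of all genes tested lay wholly higher and 3.84% wholly lower with doxorubicin. The smallest adjusted limma p of a marker was 0.695.

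Over both antibodies 9 of the 10 markers were above 0 with doxorubicin, of which Csf1r and Trem2 fall below 0 with the scaling, and only Apoe was below it. Of all 21960 genes listed, 10955 were above 0 and 6787 below in this comparison. The median of the 10 markers, 0.15, stood beside 0.12 for all genes tested, a difference of 0.04. It was 0.09 without anti-PD-1 replicate 1 and 0.10 without IgG1 replicate 2. For 0 of the 10 did the 6 tumors with doxorubicin lie wholly above the 6 without, where 0.597% of all genes did, or wholly below, where 0.122% did.

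In anti-PD-1 against IgG1, 9 of the 10 markers were below 0, with a median of -0.24 in log2 beside -0.03 for all genes tested, and Adgre1 was level at 0.00. Among all 21960 genes listed, 8803 were below 0 and 8227 above. The median of the markers was -0.15 without anti-PD-1 replicate 1 or 3 and -0.35 without anti-PD-1 replicate 2, and 9 of the 10 limma intervals span 0. After Cd68, the lowest were Trem2 at -0.49 (limma 95% interval -1.40 to 0.41) and Apoe at -0.45 (-1.09 to 0.18), each at -0.19 without 1 tumor, anti-PD-1 replicate 1 for Trem2 and replicate 3 for Apoe. Among tumors treated with doxorubicin, 8 of the 10 were below 0 with anti-PD-1, with a median of -0.33 beside -0.04, and C1qb and Trem2 were the markers above 0. All genes listed were below 0 in 9193 cases and above in 7795. The median of the markers there was -0.08 without DOX/anti-PD-1 replicate 1 and -0.14 without DOX/IgG1 replicate 2. The limma interaction had intervals that span 0 for all 10 markers, from -0.58 for C1qc to 0.50 for Trem2, values that are -0.07 and -0.42 without DOX/anti-PD-1 replicate 3, and leaving out DOX/IgG1 replicate 1 moves the median of the 10 interactions from 0.04 to -0.21.

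Markers were also compared with each other within a tumor, as differences of log2(TPM + 1) under this pseudocount only. Adgre1 minus Csf1r, both pan-macrophage receptors, was -0.86, -0.67 and -0.60 in log2 in IgG1, -0.58, -0.52 and -0.41 in anti-PD-1, -0.41, -0.60 and -0.29 in DOX/IgG1, and -0.35, -0.32 and -0.52 in DOX/anti-PD-1. All 3 IgG1 tumors were below the other 9, the nearest by less than the digits shown. The difference was 0.28 for DOX/IgG1 against IgG1 and 0.21 for anti-PD-1 against IgG1, the latter resting largely on IgG1 replicate 1 at -0.86, each with an exact permutation p of 0.1, the smallest possible, and these comparisons share the IgG1 tumors. Over both antibodies the ratio was 0.19 higher with doxorubicin, with an exact permutation p of 0.02 over 400 splits, the smallest among 9 ratios in that comparison and not adjusted for them. Mrc1 minus Csf1r was 0.61, 0.48 and 0.42 in DOX/IgG1 and -0.05, 0.26 and 0.13 in DOX/anti-PD-1, apart in all tumors with a difference of -0.39 (exact permutation p = 0.1). In IgG1 the same ratio ran from -0.48 to 0.60, and its tumors overlapped with those of every other group. Cd68 minus Csf1r was lower in all 3 anti-PD-1 tumors than in the IgG1 tumors, by a difference of -0.67 (exact permutation p = 0.1). The nearest tumors of the 2 groups stood at -1.48 and -1.46, and the size rests largely on anti-PD-1 replicate 1 at -2.64. The mean of the 3 C1q genes, Cd163, Trem2 and Apoe, each set against Csf1r, overlapped between groups in all comparisons.

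**Figure D3:**
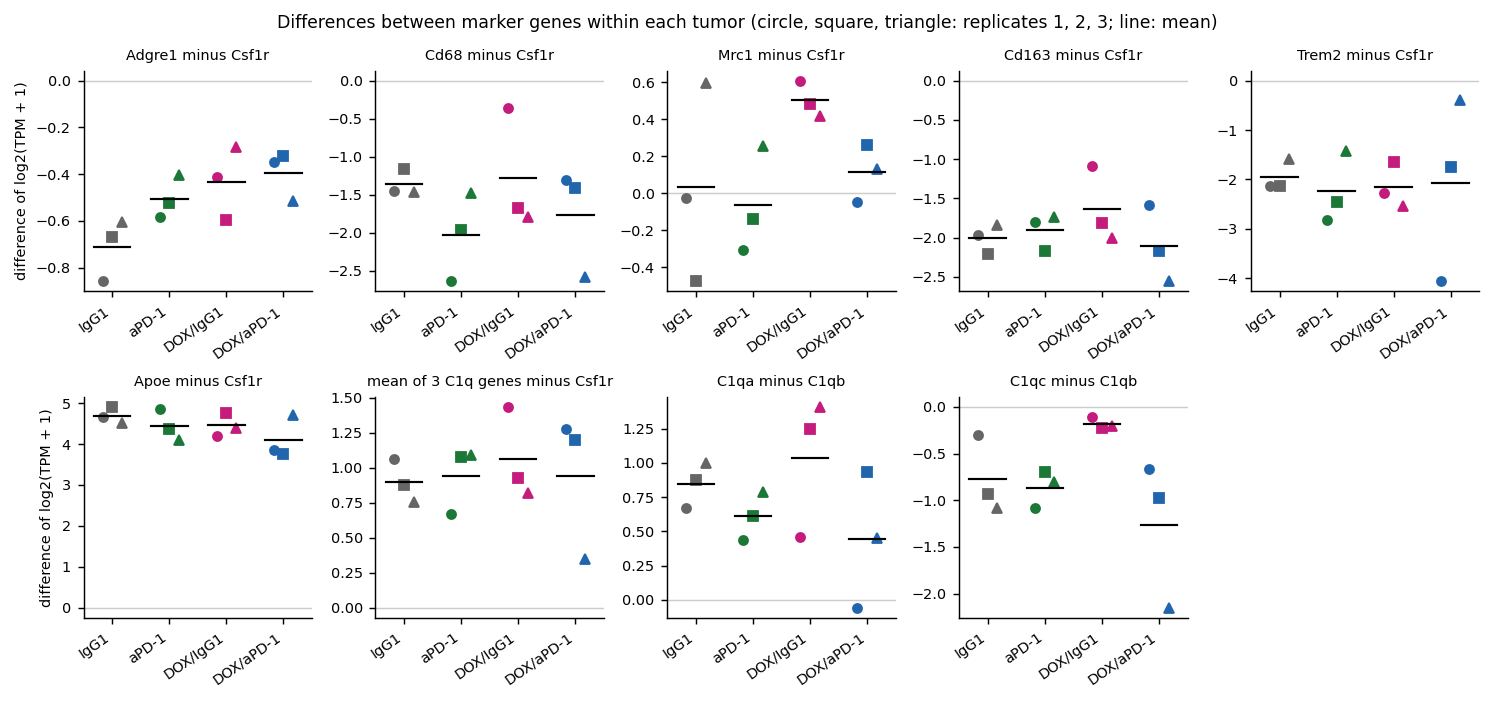
Difference in log2(TPM + 1) between pairs of markers within each tumor (y axis, scales differ between panels), with a line at the group mean. C1qc minus C1qb lay between -0.23 and -0.11 in the 3 DOX/IgG1 tumors and reached -2.15 in DOX/anti-PD-1.

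Over the 12 tumors the markers did not vary as 1 block. The median Pearson r over the 45 pairs was 0.23, from -0.46 for C1qc with Trem2 (rho -0.24, and r -0.28 without the 2 tumors farthest out in C1qc) to 0.76 for Adgre1 with Csf1r (Spearman rho 0.81), and 34 pairs were above 0. Adgre1, Csf1r, Mrc1 and C1qa went together, with r between 0.64 and 0.76 in all their pairs, and Apoe had r as high with Csf1r alone, 0.71 (rho 0.69). Cd68, Cd163 and C1qc also went together, with r of 0.55 (rho 0.49) for Cd68 with Cd163, 0.70 (rho 0.63) for Cd68 with C1qc and 0.74 (rho 0.72) for Cd163 with C1qc, which are 0.54, 0.39 and 0.52 without the 2 tumors farthest out in the gene named first. Between these sets r ran from -0.01 for Csf1r with Cd68 (rho 0.03) to 0.52 for Mrc1 with Cd163 (rho 0.47) and 0.42 for C1qa with Cd68 (rho 0.42), so the sets are not sharply divided over the 12 tumors. Without the 2 tumors farthest out in Mrc1, Mrc1 with Cd163 had r = 0.38. Without the 2 farthest out in Cd68, C1qa with Cd68 had r = -0.03. Among the C1q genes, the neighbors C1qb and C1qc had r = 0.29 (rho 0.35), which was 0.80 for deviations from the group means, the neighbors C1qc and C1qa r = 0.29 (rho 0.29), and C1qa and C1qb, which flank C1qc, r = 0.08 (rho 0.15). C1qa followed the mean of the other 9 markers most closely (r = 0.81, rho 0.79) and C1qb least (r = 0.05, rho 0.11). The sets were seen in the data and are a description, since the tumors of a group share its treatment.

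**Figure D4:**
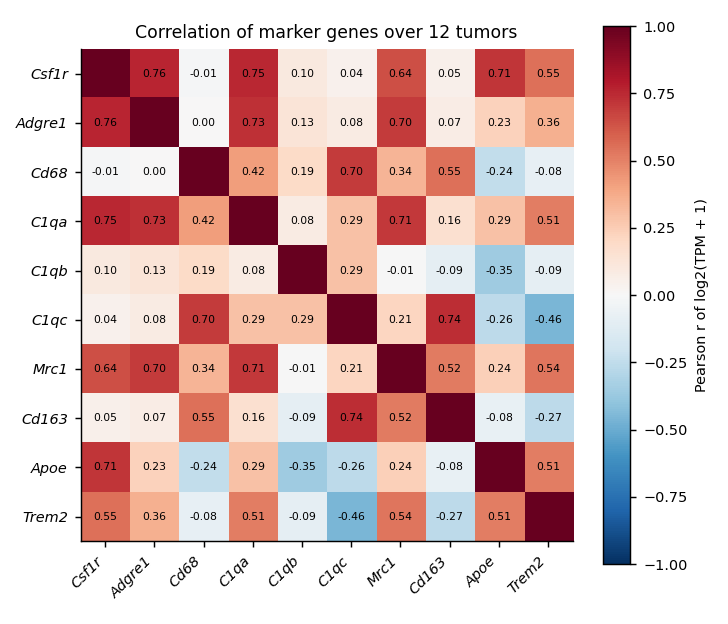
Pearson r of log2(TPM + 1) over the 12 tumors for each pair of markers, on a color scale from -1 to 1. Adgre1, Csf1r, Mrc1 and C1qa form a block with r of 0.64 to 0.76, and the lowest r is that of C1qc with Trem2 (-0.46, rho -0.24).

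Among the 11291 other genes with a mean of at least 5 TPM, those most like the mean of the 10 markers over the 12 tumors were Ncam1 (r = 0.95, rho 0.92), a neural cell adhesion molecule, Samd8 (0.92, 0.94), an enzyme of sphingolipid synthesis, Slamf7 (0.91, 0.95), a receptor of immune cells, Ndrg1 (0.89, 0.87), a gene induced by hypoxia and stress, and Vcl (0.89, 0.85), which encodes vinculin of cell adhesions. Without the tumors farthest out, anti-PD-1 replicate 1 and DOX/IgG1 replicate 2, r was 0.93, 0.89, 0.89, 0.88 and 0.82. Slamf7 had its lowest level in anti-PD-1 replicate 1 at 7.78 TPM and its highest in DOX/IgG1 replicate 3 at 32.6 TPM.

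Other macrophage genes were read as whole lists. The mean of 19 further pan-macrophage genes, such as the lysosomal genes Lyz2 and Ctss, followed the mean of the 10 markers over the 12 tumors with r = 0.76 (rho 0.80), and that of 14 alternative-activation genes with r = 0.74 (rho 0.66). For 10 classical-activation genes r was 0.49 (rho 0.40), for 21 lipid-handling genes 0.62 (rho 0.66), for 9 pan-leukocyte genes 0.55 (rho 0.59) and for 8 epithelial genes 0.37 (rho 0.39). Lists of other cells also had high r, 0.76 (rho 0.63) for 9 monocyte genes and 0.74 for 6 lymphatic endothelial (rho 0.64) and 7 T cell genes (rho 0.69). Without the 2 tumors farthest out, anti-PD-1 replicate 1 and DOX/IgG1 replicate 2, r was 0.71 for the further pan-macrophage, 0.61 for the alternative-activation, 0.54 for the monocyte, 0.61 for the lymphatic endothelial and 0.51 for the T cell genes. In limma, 0 of the genes of these lists were called in any of the 6 tests.

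The 20 further pan-macrophage genes had median log2 differences of 0.10 in DOX/IgG1 against IgG1, 0.10 in DOX/anti-PD-1 against anti-PD-1, -0.22 in anti-PD-1 against IgG1 and -0.31 when comparing DOX/anti-PD-1 with DOX/IgG1, beside 0.12, 0.11, -0.03 and -0.04 for all genes tested. At an unadjusted limma p below 0.05 stood 0, 2, 1 and 3 of the 19, 18, 18 and 19 tested, with 0, 1, 0 and 1 higher and 0, 1, 1 and 2 lower. Lyz2, lysozyme of myeloid cells, measured 278, 235 and 303 TPM in IgG1, 175, 272 and 198 TPM in anti-PD-1, 333, 320 and 319 TPM in DOX/IgG1, and 154, 303 and 361 TPM in DOX/anti-PD-1. All DOX/IgG1 tumors were above all IgG1 tumors for Lyz2, with a log2 difference of 0.26 and an exact permutation p of 0.1. Ctss, the protease cathepsin S, was lower in each of the DOX/anti-PD-1 tumors (343, 404 and 352 TPM) than in any anti-PD-1 tumor (498, 453 and 487 TPM), with a log2 difference of -0.39 and an adjusted limma p of 0.633.

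Of 9 genes of the CSF1 axis, Csf1, a ligand of Csf1r, measured 37.0, 34.9 and 31.4 TPM in IgG1, 22.4, 21.7 and 18.3 TPM in anti-PD-1, 16.3, 46.1 and 35.7 TPM in DOX/IgG1, and 35.7, 32.9 and 26.6 TPM in DOX/anti-PD-1. All 3 anti-PD-1 tumors were below all IgG1 and all DOX/anti-PD-1 tumors. The log2 difference was -0.70 against IgG1 (exact permutation p = 0.1, unadjusted limma p = 0.0162, adjusted p = 0.996) and 0.58 for DOX/anti-PD-1 against anti-PD-1 (adjusted p = 0.566). Il34, the other ligand and named after its values were seen, measured 0, 3.23 and 3.34 TPM in IgG1, 0.96, 1.05 and 4.92 TPM in anti-PD-1, 10.9, 4.01 and 9.66 TPM in DOX/IgG1, and 2.98, 3.49 and 1.00 TPM in DOX/anti-PD-1, so that DOX/IgG1 was wholly above IgG1 and DOX/anti-PD-1 and overlapped with anti-PD-1. Csf2, the growth factor GM-CSF, was listed at 0 in all 12 tumors. Cx3cl1, a chemokine for monocytes, was lower in each of the DOX/anti-PD-1 tumors (35.5, 46.9 and 44.5 TPM) than in any DOX/IgG1 tumor (50.2, 57.8 and 60.8 TPM), with a log2 difference of -0.41 (exact permutation p = 0.1, limma adjusted p = 0.988). The medians of the list were -0.17, 0.20, -0.14 and 0.00 in the order of comparisons above.

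The 18 further alternative-activation genes had a median difference of 0.34 for doxorubicin over both antibodies, beside 0.12 for all genes, with 14 above 0 and 4 below. In DOX/anti-PD-1 against anti-PD-1, 5 of the 14 genes tested stood at an unadjusted limma p below 0.05 on the higher side and 1 on the lower side, Retnla at -0.86, with 0 called. Stab1, Cd36 and Retnla are named after their values were seen. Stab1, a scavenger receptor, measured 34.1, 20.8 and 24.9 TPM in IgG1, 15.4, 17.4 and 16.1 TPM in anti-PD-1, 25.1, 32.7 and 23.5 TPM in DOX/IgG1, and 31.9, 37.0 and 41.1 TPM in DOX/anti-PD-1. The anti-PD-1 tumors were below all tumors of the other groups for Stab1. DOX/anti-PD-1 against anti-PD-1 gave a log2 difference of 1.12 (limma adjusted p = 0.429), and DOX/IgG1 and IgG1 overlapped. Retnla, a secreted protein of alternatively activated macrophages, overlapped, with 20.9, 32.2 and 19.6 TPM in anti-PD-1 and 20.5, 10.3 and 9.31 TPM in DOX/anti-PD-1. Cd36, a fatty acid transporter that adipocytes also make, was highest in DOX/IgG1 replicate 2 (150 TPM) and DOX/anti-PD-1 replicate 1 (104 TPM). Those are also the tumors with the highest sums of the 8 adipocyte genes, 896 and 861 TPM, where the other 10 had 106 to 348 TPM. In DOX/anti-PD-1 replicates 2 and 3 Cd36 was at 30.4 and 32.5 TPM, above all anti-PD-1 tumors (12.6, 18.4 and 18.0 TPM). The log2 difference between these groups was 1.49 (limma adjusted p = 0.489). The medians of the list in the 4 comparisons between groups were 0.40, 0.23, 0.00 and -0.08. Ccl8, a chemokine, had overlapping tumors in all 4.

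The 12 classical-activation genes had medians of 0.06, 0.13, -0.06 and -0.17 in the same 4 comparisons. Il1b, an inflammatory cytokine, was higher in all DOX/IgG1 tumors (24.9, 19.1 and 14.7 TPM) than in all IgG1 tumors (5.98, 13.8 and 9.84 TPM), by 0.95 in log2 (exact permutation p = 0.1, unadjusted limma p = 0.0361, adjusted p = 0.614). In that comparison 9 of the 12 genes were tested, and 1 was higher and 1 lower at an unadjusted limma p below 0.05. The lower was Cxcl9, a chemokine induced by interferon and named after its values were seen, with 0, 2.29 and 3.45 TPM in DOX/IgG1, where replicate 1 is the tumor at 0, and 4.31, 9.82 and 6.78 TPM in IgG1. Cxcl10, a related chemokine, overlapped in all 4.

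The 23 lipid-handling and TREM2-linked genes had medians of 0.17, -0.02, 0.01 and -0.16. Spp1, which encodes osteopontin, was lower in each of the DOX/anti-PD-1 tumors (404, 697 and 706 TPM) than in any anti-PD-1 tumor (757, 1096 and 774 TPM), with a log2 difference of -0.56 (exact permutation p = 0.1, limma adjusted p = 0.626) whose size rests largely on DOX/anti-PD-1 replicate 1 at 404 TPM. Itgax, the integrin CD11c of dendritic cells and lipid-laden macrophages, is also in this list and is named after its values were seen: 46.9, 28.5 and 23.7 TPM in anti-PD-1 and 14.2, 12.6 and 12.8 TPM in DOX/anti-PD-1, a log2 difference of -1.20 (exact permutation p = 0.1, unadjusted limma p = 0.00344, adjusted p = 0.479). All DOX/IgG1 tumors (18.6, 22.1 and 30.2 TPM) were above them as well, and anti-PD-1 gave a difference of -0.77 there. Of the 23 genes, 20 were tested in DOX/anti-PD-1 against anti-PD-1 and 3 stood at an unadjusted limma p below 0.05. Of these Itgax was lower and 2 were higher, Lpl and Fabp4, lipid genes that adipocytes also make and that are likewise named after their values were seen. Of the DOX/anti-PD-1 tumors, both were highest in replicate 1, at 140 and 214 TPM, which also had the 861 TPM of adipocyte genes. Fabp4 overlapped between the groups. Lpl lay wholly higher, with 57.9 and 61.4 TPM in DOX/anti-PD-1 replicates 2 and 3 and 35.3, 36.5 and 41.1 TPM in anti-PD-1. Between the groups with doxorubicin, 3 of the 21 list genes tested stood at an unadjusted limma p below 0.05, all lower, with Itgax among them. Cd9, a membrane protein of many cells, had overlapping tumors in all 4 comparisons.

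**Figure D5:**
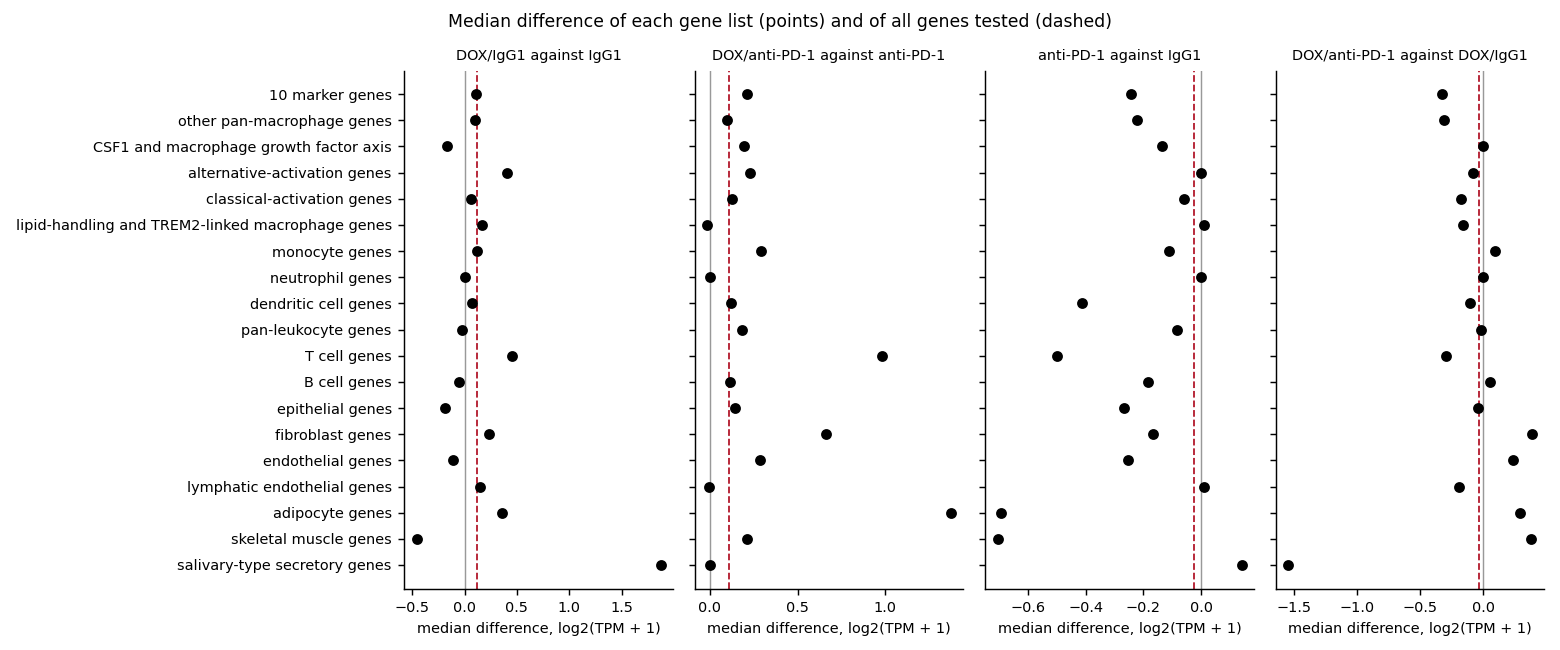
Median difference in log2(TPM + 1) of each gene list (points, a panel for each comparison, x axes differ) and of all genes tested (dashed line). The 10 marker genes lay at 0.11, 0.21, -0.24 and -0.33, and the 20 other pan-macrophage genes at 0.10, 0.10, -0.22 and -0.31.

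Markers of other cells also differed between the tumors, and their part in the values above was not tested. The 9 pan-leukocyte genes, led by Lcp1 (mean 103 TPM) and Ptprc, which encodes CD45, summed to 316, 310 and 382 TPM in IgG1, 263, 321 and 251 TPM in anti-PD-1, 223, 331 and 415 TPM in DOX/IgG1, and 312, 359 and 263 TPM in DOX/anti-PD-1. Their medians were -0.02, 0.18, -0.08 and -0.02, with 0 listed at 0 in all tumors. The 8 T cell genes, led by Cd3e (mean 7.89 TPM), summed to 26.8, 24.2 and 9.84 TPM in IgG1, 9.02, 21.7 and 10.3 TPM in anti-PD-1, 16.6, 62.6 and 49.5 TPM in DOX/IgG1, and 22.6, 29.1 and 39.3 TPM in DOX/anti-PD-1. In DOX/IgG1 the T cell sum was lowest in replicate 1, as were Csf1r, Adgre1, C1qa, Mrc1, Apoe and Trem2. Cd68, Cd163, C1qb and C1qc were highest of that group in the same tumor. The medians of the T cell genes were 0.45, 0.98, -0.50 and -0.30. The 10 monocyte genes, led by Fn1 (mean 434 TPM), had medians of 0.12, 0.29, -0.11 and 0.09, the 10 dendritic cell genes, led by Itgax, 0.07, 0.12, -0.41 and -0.11, and the 6 B cell genes, led by Jchain (mean 3.94 TPM), -0.05, 0.11, -0.18 and 0.06. Of 11 neutrophil genes 3 (Ly6g, Elane and Camp) were listed at 0 in all tumors, the median was 0.00 in all 4 comparisons and the most abundant, S100a8, had a mean of 3.77 TPM.

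Among the cells of the tissue itself, the 8 epithelial genes summed to 3856, 2660.5 and 3316 TPM in IgG1, 2948, 2262 and 2524 TPM in anti-PD-1, 2203, 3460.2 and 4008 TPM in DOX/IgG1, and 3278, 2930 and 2422 TPM in DOX/anti-PD-1. Their medians were -0.19, 0.15, -0.27 and -0.04. Limma called 0 of them, and at an unadjusted p below 0.05 stood 1 lower in DOX/IgG1 against IgG1 (Epcam, -0.87), 2 higher in DOX/anti-PD-1 against anti-PD-1, 2 lower in anti-PD-1 against IgG1 and 0 between the groups with doxorubicin. The 9 fibroblast genes, led by the collagen Col1a1 (mean 358 TPM), summed to 1238, 1192 and 1867 TPM in IgG1, 977, 877 and 736 TPM in anti-PD-1, 557, 1907 and 1372 TPM in DOX/IgG1, and 1122, 1480 and 1680 TPM in DOX/anti-PD-1. All 3 anti-PD-1 tumors were below all IgG1 tumors in that sum, and the medians were 0.23, 0.66, -0.17 and 0.39, with 0 called and 1 lower, 5 higher, 1 lower and 0 at an unadjusted limma p below 0.05. The 8 adipocyte genes, led by Cfd (mean 147 TPM), had medians of 0.36, 1.38, -0.69 and 0.29, with 6 of 8 at an unadjusted limma p below 0.05 in DOX/anti-PD-1 against anti-PD-1 and 0 called. The 8 endothelial genes, led by Pecam1 (mean 37.9 TPM), had medians of -0.11, 0.29, -0.25 and 0.24, and the 7 lymphatic endothelial genes, led by Pdpn (mean 69.5 TPM), 0.15, 0.00, 0.01 and -0.19. The 6 skeletal muscle genes, led by Acta1 (mean 52.4 TPM), had medians of -0.46, 0.21, -0.71 and 0.38. The 5 listed salivary-type secretory genes, led by Amy1 (mean 17.1 TPM), had medians of 1.88, 0.00, 0.14 and -1.55, and were the only list with called genes, 2 in DOX/IgG1 against IgG1 and 1 each for doxorubicin over both antibodies and for the interaction.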

How the data were processed

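The authors trimmed reads with skewer, aligned them to mm10 with STAR, counted genes with RSEM and deposited log2 values, log2(TPM + 1), for 21960 genes in 12 tumors. TPM were recovered from these. They sum to between 609418 and 725506 per tumor, and depth cannot be recovered from them. The 10 markers and all lists were chosen with earlier results of these data known. limma 3.58.1 (R 4.3.3, trend, two-sided) tested genes reaching 1 TPM in at least 3 tumors of a comparison, with p adjusted by Benjamini-Hochberg over all genes tested and a call at adjusted p below 0.1 with an absolute log2 fold change above 1. Exact permutation tests, ratios, correlations and motif counts used Python 3.11.15, pandas 2.3.3, numpy 2.4.6 and scipy 1.17.1, and figures matplotlib 3.10.9. Positions are from GENCODE and promoters from RefSeq. Named genes are the 10 markers, the 2 most abundant genes of each other list, called list genes, and 5 genes by likeness, apart from results left out, and others are named as chosen after their values. Of 182 other list genes, 179 were in the files. The median of a list covers all its genes in the files, also those below the minimum and so not tested. Alternatives were a pseudocount of 0.1 or 5 TPM, no minimum or 5 TPM, median-of-ratios scaling, a replicate block, 1 fit of all 12 tumors, the medians without Apoe and Mrc1, and leaving out each tumor.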

Additional observations from a re-analysis of the deposited data

Results flagged for a closer look

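In the limma interaction Bpifa2, a salivary-type secretory gene, was called (adjusted p = 0.0909). Bpifa2 measured 14.4, 21.3 and 53.7 TPM in the 3 DOX/IgG1 tumors and was listed at 0 in the other 9. The log2 difference of -4.73 is set by the pseudocount, as 9 of 12 tumors are at 0. The interaction called 0 genes with a pseudocount of 0.1 TPM, a minimum of 5 TPM, the median-of-ratios scaling or a replicate block, and called a gene in leave-outs only without DOX/IgG1 replicate 1 or DOX/anti-PD-1 replicate 3. None of the 10 macrophage markers was called in that test, where 694 of 14735 genes had an unadjusted limma p below 0.05.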

How the results depend on the processing

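None of the 10 markers was called in any of the 880 alternative limma fits of a marker. The sign of the difference changed in 62 of them, mostly when leaving out 1 tumor. Another minimum, a replicate block or 1 fit of all 12 tumors leaves the difference as it is. The sign could therefore not change in those fits, which are among the 880. Genes called, as lowest to highest when leaving out 1 tumor, were 0 to 122 in DOX/IgG1 against IgG1, 0 to 4 in DOX/anti-PD-1 against anti-PD-1, 0 to 4 in anti-PD-1 against IgG1, 0 to 4 for anti-PD-1 among the tumors with doxorubicin, 0 to 301 for doxorubicin over both antibodies and 0 to 1 for the interaction. Medians of the 10 markers when leaving out 1 tumor ran from -0.21 to 0.24 for the interaction. For anti-PD-1 among the tumors with doxorubicin they ran from -0.41 up to -0.078, the last without DOX/anti-PD-1 replicate 1. Why these counts move was not tested.

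With a pseudocount of 0.1 TPM, 6 genes were called for doxorubicin over both antibodies and 0 for the interaction. With no minimum the interaction called 3 genes. With a minimum of 5 TPM it called 0, and doxorubicin over both antibodies 7. With the median-of-ratios scaling, 3 genes were called for anti-PD-1 among the tumors with doxorubicin and 0 for the interaction, and 1 fit of all 12 tumors called 2 in that comparison.

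A replicate block called 2 genes in DOX/IgG1 against IgG1 and 0 for the interaction. Over 14735 genes, centered profiles of tumors with the same replicate number had r from -0.10 to 0.13. For tumors with different numbers r ran from -0.19 to 0.11. With 3 tumors in each group, these values cannot settle whether replicate numbers pair the tumors. In the fit with a replicate block the unadjusted limma p of Cd68 in anti-PD-1 against IgG1 was 0.0519. Over the fit reported and the other settings apart from leaving out a tumor, the unadjusted limma p of Cd68 was below 0.05 in 7 of 8 fits. The adjusted limma p was 0.946 or more in these 8.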
